A study of Mus musculus with 10 samples.

Results

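The 10 genes described here are named for Purkinje cell identity and G-protein regulation: Pcp2, Rgs8, Gng13, Pcp4 and Ppp1r17, which are abundant Purkinje cell markers, and the transcriptional regulators Rora, Foxp2, Lhx1, Lhx5 and Skor2. They were chosen by name, with earlier results of these data known, and looked up in GENCODE M21. There each matched 1 of the 55536 mouse genes counted. Their counts were read from 10 libraries made from cerebellum and cerebral cortex, taken from 5 mice aged 1 year. Each mouse gave both tissues. The KO mice (KO 1 and KO 2) were homozygous for a frameshift deletion of Snx14 that is present in every cell of the body, on a C57BL/6J background. Controls 1 and 2 were Het for that allele and control 3 was WT, and the labels group all 3 as controls. All KO mice carry the same deletion allele, and the tissue was dissected whole, so every library mixes all cell types of its region.

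Purkinje cells are the output neurons of the cerebellar cortex. They integrate parallel and climbing fiber input and inhibit the cerebellar nuclei, and part of their input acts through receptors coupled to heterotrimeric G proteins. Receptor activation loads the G alpha subunit with GTP and frees the G beta gamma dimer, and regulators of G-protein signaling (RGS proteins) and GoLoco proteins set how long and how strongly the subunits signal. Purkinje cell fate and maturation rest on a set of transcription factors, of which RORα, encoded by Rora, is the best known because its loss causes the staggerer phenotype.

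Levels are counts-per-million (CPM) of a library's gene counts, which totalled 16088310 to 22975355, scaled by TMM factors within a tissue. Snx14 was at 44.2, 41.4 and 76.0 CPM in the cerebella of controls 1 to 3 against 15.9 and 18.0 CPM in KO mice, so both KO libraries lay below all controls, and in cortex it was at 33.0, 33.7 and 48.7 CPM against 14.5 and 15.5 CPM. By Xist and Y-linked genes, control 2 and KO 2 were male and the other mice female. Summed over 10 granule cell genes, cerebellum libraries held 4910 to 5781 CPM and cortex libraries 175 to 231 CPM. Control 2 stood apart in cortex. Its sum over 10 striatum genes was 4337 CPM, against 1949.8 and 1764 CPM in controls 1 and 3 and 1123 and 589 CPM in the KO mice.

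To show the sequence that lies before the annotated starts of these genes, the 250 bases before each were taken from RefSeq (GRCm38.p6). They were searched on both strands for AGGTCA, the core element that RORα binds. RefSeq windows were matched for 6 of the 10 genes (Pcp2, Rgs8, Gng13, Pcp4, Rora and Lhx1), 12 windows in all. The letters were found in 5 of the 12, in 3 of 4 for Pcp2, in the 1 window of Pcp4 and in 1 of 3 for Rgs8. Of all 32851 windows of this length, 14.0% held them. Windows 1 and 2 of Pcp2 overlap and share 1 match. Windows before later starts can lie within the gene, as do windows 3 and 4 of Pcp2, windows 2 and 3 of Rgs8 and window 2 of Gng13. Window 2 of Pcp2 and window 1 of Rgs8 run partly into the gene. The 4 windows below were chosen to show a match in each of the 3 markers that had one and, for contrast, the window of Lhx1, a called transcription factor with none. Capitals mark AGGTCA, or TGACCT where the match is on the opposite strand. They are Pcp2 window 1 (chr8:3625548-3625797, minus strand), Pcp4 (chr16:96467356-96467605, plus strand), Rgs8 window 3 (chr1:153665423-153665672, plus strand) and Lhx1 (chr11:84525535-84525784, minus strand), each written 5′ to 3′ toward the start.
Pcp2: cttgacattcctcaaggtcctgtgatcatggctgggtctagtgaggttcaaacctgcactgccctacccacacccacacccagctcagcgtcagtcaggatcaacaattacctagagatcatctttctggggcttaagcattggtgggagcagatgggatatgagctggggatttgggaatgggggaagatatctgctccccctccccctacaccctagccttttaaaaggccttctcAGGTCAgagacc
Pcp4: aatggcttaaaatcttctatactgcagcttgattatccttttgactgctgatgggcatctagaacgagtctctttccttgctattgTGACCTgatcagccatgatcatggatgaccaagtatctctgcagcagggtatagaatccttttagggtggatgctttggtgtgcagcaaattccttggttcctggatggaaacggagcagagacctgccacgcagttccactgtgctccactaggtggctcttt
Rgs8: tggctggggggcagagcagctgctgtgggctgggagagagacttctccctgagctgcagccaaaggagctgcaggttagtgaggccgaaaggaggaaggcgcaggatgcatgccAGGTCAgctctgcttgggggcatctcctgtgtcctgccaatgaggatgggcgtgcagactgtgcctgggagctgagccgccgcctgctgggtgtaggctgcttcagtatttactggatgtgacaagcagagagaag
Lhx1: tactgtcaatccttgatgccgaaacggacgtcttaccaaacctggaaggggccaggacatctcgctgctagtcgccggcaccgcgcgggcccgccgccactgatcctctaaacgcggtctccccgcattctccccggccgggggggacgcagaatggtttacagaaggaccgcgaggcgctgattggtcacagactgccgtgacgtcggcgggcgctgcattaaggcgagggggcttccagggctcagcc
The match began 12 bases before the start in Pcp2, 164 bases before it in Pcp4 and 136 bases before it in Rgs8. A search for TAATTA, a core element of LIM homeodomain factors that reads the same on both strands, found it in 1 of the 12 windows (window 3 of Pcp2) and in 4.84% of all windows. A match of letters is a description of the sequence and does not show binding.

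All 10 genes were lower in KO cerebella than in controls, and in each of them both KO libraries lay below all 3 controls. That ordering was found for 15.5% of the 19447 genes tested. With the call rule of the study (adjusted p under 0.05 and a log2 change over 0.5 in size), 7 of the 10 were called lower (Pcp2, Rgs8, Gng13, Pcp4, Ppp1r17, Lhx1 and Skor2), against 1.04% of all genes tested. At an unadjusted p under 0.05, 10 of 10 were lower, against 6.53% of all genes. The genes were chosen with earlier results of these data known, and the study names Pcp2 and Rgs8 as lower at this age. These shares therefore describe the set and are no independent evidence. The 5 markers stayed called when any 1 library was left out, whereas the calls of Lhx1 and Skor2 and the missing calls of Rora and Foxp2 turned on single libraries. The WT control lay between the Het controls for 8 of the 10 genes and below both for Ppp1r17 and Lhx1. Because whole tissue was sequenced, fewer Purkinje cells and less RNA per cell cannot be told apart in these counts. By calbindin staining, the study found fewer Purkinje cells in part of the KO cerebellum at younger ages. It proposes that the lower genes at this age could reflect their loss.

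**Figure D1:**
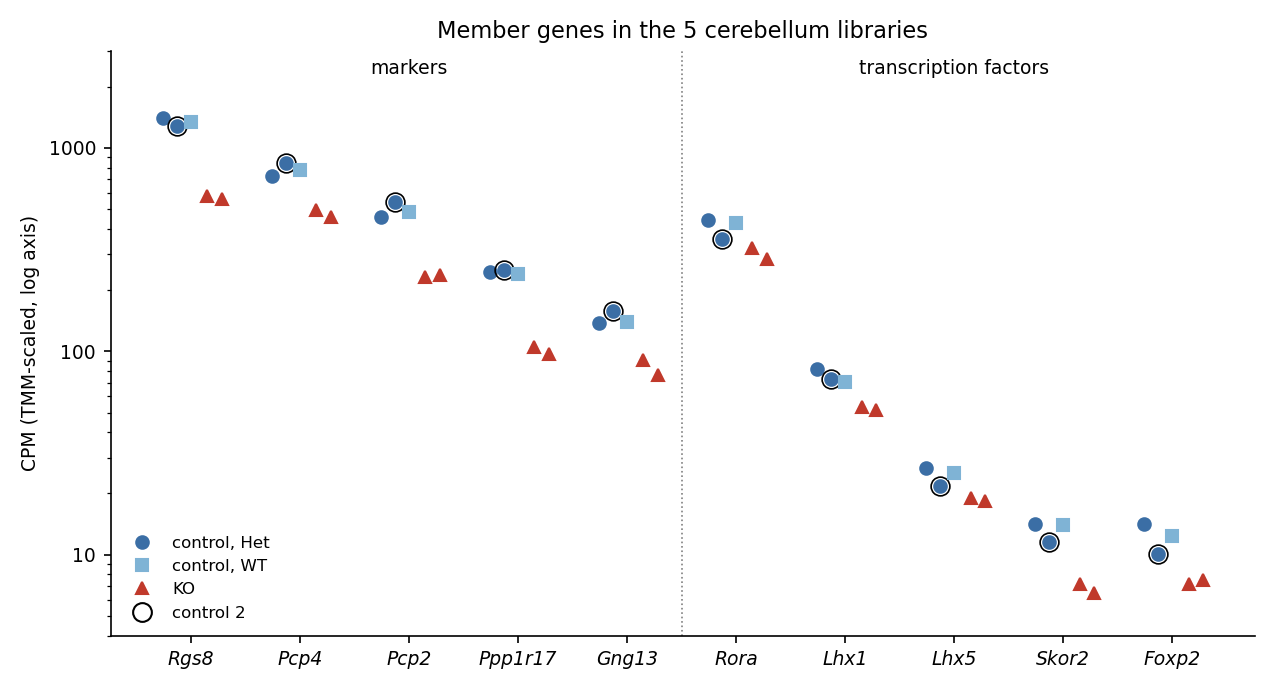
CPM (TMM-scaled, log axis) of the 10 genes in each of the 5 cerebellum libraries, with markers left and transcription factors right of the dotted line. Circles are Het controls (control 2 ringed), squares the WT control and triangles KO mice; in every gene both triangles lie below the 3 controls.

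Among the 3 G-protein regulators, Rgs8 had the largest log2 change, with an interval that overlapped that of Pcp2. RGS8 speeds GTP hydrolysis by G alpha subunits of the Gi/o class and so shortens their signal. The gene (ENSMUSG00000042671.12, chromosome 1, 153653025 to 153700323, GRCm38) was at 1403, 1276 and 1338 CPM in controls 1 to 3 and at 579 and 563 CPM in KO 1 and KO 2. The groups were far apart, with a gap between them larger than the spread within either. KO cerebella kept 42.6% ± 0.859 (SD, n = 2) of the control mean, a log2 change of -1.23 (adjusted p 0.000505, SE 0.0900).

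Pcp2, also called L7, encodes a GoLoco protein that binds Gi/o alpha subunits and is made in the cerebellum almost only by Purkinje cells. It (ENSMUSG00000004630.18, chromosome 8, 3623371 to 3625545) was at 458, 540.1 and 482 CPM in the controls against 231 and 236 CPM in KO mice. The 2 KO values differed by less than any pair of controls. KO cerebella kept 47.4% ± 0.716 (SD, n = 2), a log2 change of -1.08 (adjusted p 0.000937, SE 0.0897).

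Reads of Pcp2 could not be fully separated from those of Pet100, a gene on the opposite strand that encodes a cytochrome c oxidase assembly factor. The 2 genes share 941 exonic bases, 51.5% of those of Pcp2, and the counting gave a read pair in the shared part to both. The Pet100 count was 59.3% to 66.4% of that of Pcp2 in the cerebellum libraries and fell with it, by 1.06 on the log2 scale (adjusted p 0.00144, SE 0.0972), with 308 ± 27.9 CPM in controls (SD, n = 3) and 147 ± 13.9 CPM in KO mice (SD, n = 2). Subtracting the whole Pet100 count from that of Pcp2, which leaves a lower bound, gave 186 ± 14.7 CPM in controls and 86.7 ± 10.4 CPM in KO mice. Of this remainder KO cerebella kept 46.7%, a log2 ratio of -1.10 beside the -1.08 of the full count. That share does not bound the share of Pcp2 kept, because reads of Pet100 alone are subtracted too.

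**Figure D2:**
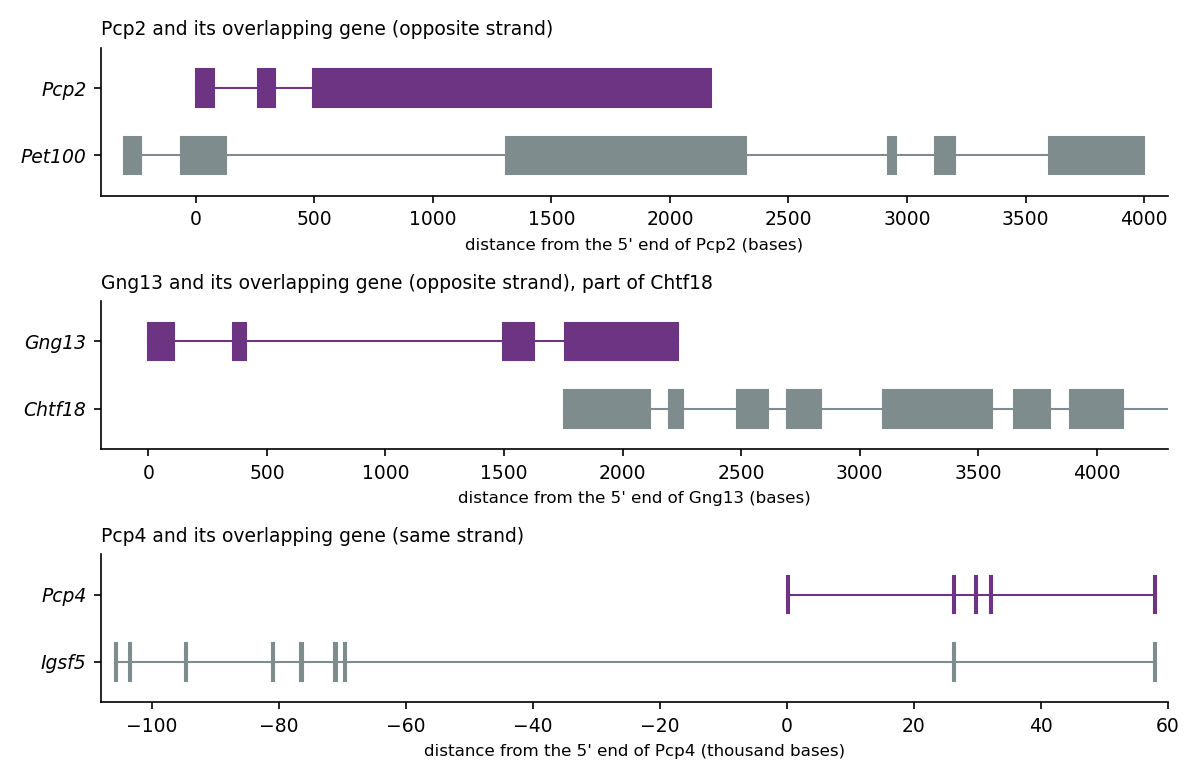
Exon blocks of Pcp2, Gng13 and Pcp4 (purple) above those of the gene that shares exonic bases with each (grey), by distance from the 5′ end of the member gene in bases (kilobases for Pcp4), with blocks drawn at a minimum width. Pet100 and Chtf18 lie on the opposite strand and cover 51.5% of the Pcp2 and 51.6% of the Gng13 exonic bases; Igsf5 lies on the strand of Pcp4 and covers 23.7%.

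Gng13 encodes a G gamma subunit, the small partner of G beta in the dimer that receptor activation frees. It (ENSMUSG00000025739.13, chromosome 17, 25717171 to 25719406) was at 138, 158 and 139 CPM in the controls against 90.9 and 76.5 CPM in KO mice. The groups did not overlap, although the KO mice differed from each other more than for Pcp2 or Rgs8. KO cerebella kept 57.7% ± 6.99 (SD, n = 2), a log2 change of -0.79 (adjusted p 0.00476, SE 0.0932). Here too a neighbour shares exons: Chtf18, a clamp loader gene on the opposite strand, covers 51.6% of the Gng13 exonic bases. Its count was 83.5% to 90.1% of that of Gng13 and fell by 0.82 on the log2 scale (adjusted p 0.00197). After its count was subtracted, an alternative chosen after the data were seen, only 16.4 to 19.7 CPM were left in controls and as little as 7.58 CPM in KO mice, with 64.4% kept and a log2 ratio of -0.64. That share rests on a small remainder, in which KO 1 lay near the controls, and does not bound the share of Gng13 kept. How many of the shared reads belong to each gene was not tested.

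The other markers act on calmodulin and on protein phosphatases. Pcp4 (PEP-19) encodes a small IQ-motif protein that binds calmodulin. It (ENSMUSG00000090223.2, chromosome 16, 96467606 to 96525793) was at 726, 839 and 782 CPM in the controls against 494 and 458 CPM in KO mice, with no overlap. KO cerebella kept 60.8% ± 3.24 (SD, n = 2), a log2 change of -0.72 (adjusted p 0.00720, SE 0.0929), and with the replicate number as a block the adjusted p was 0.0516. A gene model named Igsf5 (ENSMUSG00000117081.1), which runs through Pcp4 on the same strand, covers 23.7% of its exonic bases and carried 96.7% to 97.9% of its count in the cerebellum libraries. All exonic bases of this model are shared with other genes, so its count gives no separate measure.

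Ppp1r17 encodes G-substrate, a protein that cGMP-dependent kinase turns into an inhibitor of protein phosphatases. The gene (ENSMUSG00000002930.6, chromosome 6, 56017497 to 56032689) shares no exonic base with another gene. It was at 246, 251 and 240.1 CPM in the controls against 105 and 97.4 CPM in KO mice. Controls were closer together than for the other 9 genes relative to their mean, and the KO values lay far below them. KO cerebella kept 41.2% ± 2.14 (SD, n = 2), the smallest share of the 10 genes, with a log2 change of -1.28 (adjusted p 0.000444, SE 0.0652).

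By full counts, the transcription factors were at lower levels per length than the markers. In control cerebella, CPM per kilobase of exon was 31.3 ± 3.53 for Rora, 18.5 ± 1.44 for Lhx1, 9.12 ± 0.895 for Lhx5, 4.20 ± 0.475 for Skor2 and 0.746 ± 0.124 for Foxp2 (SD, n = 3). For the markers it was 763 ± 55.1 for Pcp4, 269.9 ± 23.0 for Pcp2, 188 ± 14.0 for Gng13, 139.8 ± 2.97 for Ppp1r17 and 139 ± 6.60 for Rgs8. By full counts every marker thus lay above every factor on this scale, and Ppp1r17 and Rgs8 did not differ beyond their spread. The values of Pcp2, Gng13 and Pcp4 include reads shared with Pet100, Chtf18 and the Igsf5 model. The Chtf18 count was 83.5% to 90.1% of that of Gng13, so whether Gng13 itself lies above every factor could not be told.

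Skor2 encodes a corepressor that Purkinje cell precursors need to mature. The gene (ENSMUSG00000091519.1, chromosome 18, 76856405 to 76900342) had 293, 239 and 265 counts in the controls and 127 and 152 in the KO mice, which is 14.1, 11.5 and 14.0 CPM against 7.17 and 6.51 CPM. It kept 51.8% ± 3.57 (SD, n = 2), a log2 change of -0.95 (adjusted p 0.0179, SE 0.155). The direction held in all alternatives, but the call was lost when any library other than control 2 was left out (adjusted p 0.0693 to 0.110) and with the replicate number as a block (0.107).

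Lhx1 and Lhx5 are LIM homeobox genes that act together in Purkinje cell differentiation. Lhx1 (ENSMUSG00000018698.15, chromosome 11, 84518284 to 84525535) was at 82.0, 73.1 and 70.9 CPM in the controls against 53.3 and 51.3 CPM in KO mice, with 69.5% ± 1.87 kept (SD, n = 2). Its log2 change of -0.53 (adjusted p 0.0135, SE 0.0804) lay just past the size threshold, and the call was lost without control 1, KO 1 or KO 2 (adjusted p 0.0639, 0.0696 and 0.0906). Lhx5 (ENSMUSG00000029595.9, chromosome 5, 120431699 to 120441223) was at 26.5, 21.9 and 25.2 CPM against 19.0 and 18.4 CPM. Both KO values were below the controls, but the gene was not called (log2 change -0.39, SE 0.114, adjusted p 0.161), and DESeq2 gave an adjusted p of 0.106.

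Foxp2 encodes a forkhead repressor that is kept on in mature Purkinje cells. It (ENSMUSG00000029563.16, chromosome 6, 14901349 to 15441977) was at 14.1, 10.1 and 12.3 CPM in the controls against 7.17 and 7.53 CPM in KO mice. The 60.3% ± 2.10 (SD, n = 2) kept was close to that of Pcp4, but the controls were more spread out, and the gene was not called (log2 change -0.73, SE 0.172, adjusted p 0.0839). It was called by DESeq2 (adjusted p 0.0147) and by edgeR without control 2 (0.0240).

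Rora encodes a nuclear receptor that Purkinje cells and molecular layer interneurons both make. It (ENSMUSG00000032238.17, chromosome 9, 68653786 to 69388246) was at 442, 356 and 429 CPM in the controls against 321 and 284 CPM in KO mice. Control 2 was the control nearest to the KO mice. KO cerebella kept 74.0% ± 6.36 (SD, n = 2), a log2 change of -0.43 (adjusted p 0.0989, SE 0.108), so the gene was not called. The call came only without control 2, with a log2 change of -0.53 and an adjusted p of 0.0101. DESeq2 gave an adjusted p of 0.00307 and edgeR with sex as a covariate 0.0238, both with a log2 change under 0.5 in size.

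**Figure D3:**
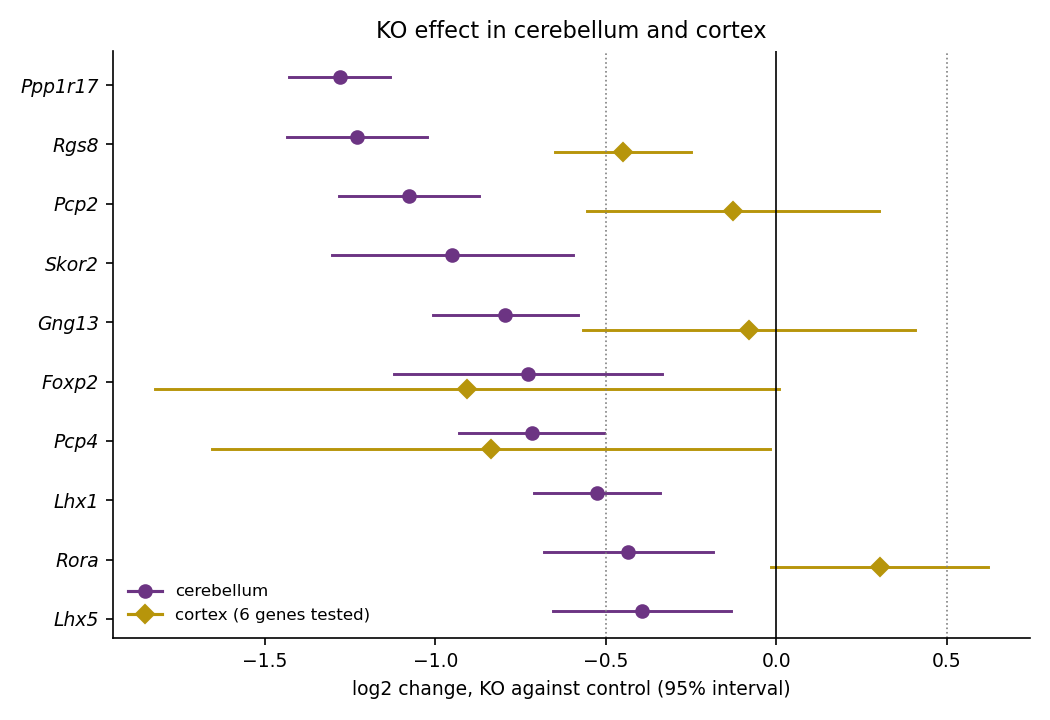
Log2 change of KO against control with its 95% interval for the 10 genes in cerebellum (purple circles) and for the 6 tested in cortex (yellow diamonds), ordered by the cerebellum value; dotted lines mark a log2 change of 0.5 in either direction. Cerebellum values run from -1.28 for Ppp1r17 to -0.39 for Lhx5, and Rora is the one gene with a positive value in cortex.

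The question of whether transcription factors fell with the abundant markers was described within libraries. The median log2 change was -1.08 for the 5 markers and -0.53 for the 5 factors, beside 0.000899 for all genes tested. The groups of genes were not cleanly apart, since Skor2 kept a smaller share than Gng13 and Pcp4, and Foxp2 a smaller share than Pcp4. Ordered by the share kept, from Ppp1r17, Rgs8, Pcp2, Skor2, Gng13, Foxp2, Pcp4, Lhx1 and Rora to Lhx5, neighbours had overlapping 95% intervals of the log2 change in 9 of 9 cases, and the KO values themselves overlapped in 6 of 9.

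Mean log2 CPM of the factors minus that of the markers was -3.27, -3.68 and -3.39 in controls 1 to 3, against -3.04 and -3.02 in the KO mice. Both KO libraries lay above all controls, by 0.42 between the means, with a control SD of 0.212 (n = 3) and a KO SD of 0.0178 (n = 2). Control 2 had the lowest value, and without it the difference was 0.30. Of the 25 pairs of 1 factor and 1 marker, the log2 ratio in both KO libraries was above all controls in 18, below in 0 and overlapping in 7. Of the 7, 3 involved Skor2, 2 Foxp2 and 2 Lhx1. Rora and Lhx5 were above against each of the 5 markers. The pairs reuse the same genes and libraries, so they are not 25 separate observations, and no share over other gene pairs was computed. Counts of Pcp2, Gng13 and Pcp4 also hold reads shared with other genes. These values are a description with no test.

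**Figure D4:**
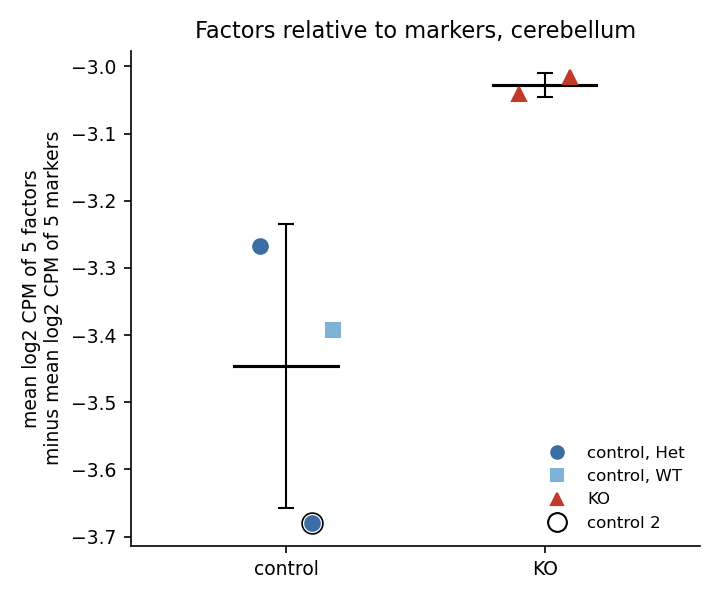
Mean log2 CPM of the 5 transcription factors minus mean log2 CPM of the 5 markers in each cerebellum library, with group mean and SD as bars and control 2 ringed. The KO libraries sit at -3.04 and -3.02, above the control values of -3.68 to -3.27.

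Together the 10 genes took 0.352% or 0.353% of all gene counts in the control cerebella and 0.191% and 0.183% in the KO cerebella. In cortex they took 0.0578%, 0.101% and 0.0552% in controls 1 to 3, with control 2 far above the others, and 0.0498% and 0.0466% in KO mice. Control cerebellum and control cortex were compared to see how far each gene is a cerebellar transcript. The main fit did not pair the tissues of a mouse. Of the 10, 8 were called higher in cerebellum, against 19.1% of the 19416 genes tested, and Foxp2 was called lower, against 21.5%. Ppp1r17 had 18 counts over the 3 cortex controls and was 707-fold higher in cerebellum, Lhx1 had 7 and was 524-fold higher, and Lhx5 had 6 and was 202-fold higher. Control 1 held 5 of the 6 Lhx5 counts, and without it the fitted log2 difference rose from 7.61 to 9.37. Skor2 had 0 counts in all 5 cortex libraries and was at least 223-fold higher, taking 3 counts over the control group as the floor, which covers counting error only.

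Cortex expression was clearer for the other genes. Pcp2 was 95.2-fold higher in cerebellum (log2 6.58, adjusted p 7.36e-09), yet at 4.30 to 5.23 CPM in cortex controls it had fewer counts than Pet100, whose count was 252% to 397% of that of Pcp2 in the cortex libraries, so how much of it is Pcp2 could not be told. Rgs8 was 9.93-fold (log2 3.31, adjusted p 3.96e-08), Gng13 6.13-fold (2.61, 2.37e-06) and Rora 5.48-fold (2.46, 1.91e-06) higher in cerebellum. The Chtf18 count was 90.0% to 96.2% of that of Gng13 in the cortex libraries, and subtracting it left 0.706 to 2.25 CPM in cortex controls, so how much of the fold belongs to Gng13 could not be told. Pcp4 did not pass (log2 0.66, adjusted p 0.0840), and without control 2 it was 1.09 on the log2 scale and called. It was called as well with animal as a block (log2 0.77, adjusted p 0.00394). Foxp2 was lower in cerebellum by a log2 value of -1.73 (adjusted p 0.00281), or -1.06 without control 2.

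In cortex, the reference tissue, 6 of the 10 genes had enough counts to be tested, and none was called by edgeR or by DESeq2, with 0.0% of the 19202 genes called lower by edgeR. Snx14 itself was not called there (log2 change -1.36, unadjusted p 0.000132, adjusted p 0.754), so a missing call in cortex does not show that a gene was unchanged. An unadjusted p under 0.05 with a lower value was found for 2 of the 6, Rgs8 and Pcp4, against 3.29% of all genes. Both KO libraries lay below all controls for Rgs8, Pcp4 and Foxp2, against 12.6% of genes, and above them for Rora, against 11.9%.

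Rgs8 was at 121, 129 and 124 CPM in cortex controls against 94.0 and 88.6 CPM in KO mice. Both groups were tight and apart, with 73.2% ± 3.07 (SD, n = 2) kept. The log2 change was -0.45 (SE 0.0860, unadjusted p 0.000920, adjusted p 0.754). The adjusted p was 0.0350 with DESeq2, and 0.00955 with edgeR when control 2 was left out, but the size stayed under the threshold of 0.5.

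Pcp4 was at 343, 728 and 302 CPM in cortex controls and at 267 and 245 CPM in KO mice, and Foxp2 at 23.8, 61.8 and 26.7 CPM against 20.9 and 19.1 CPM. In both genes control 2 was far above every other library, as it was for the striatum genes. The log2 changes of -0.84 for Pcp4 (adjusted p 0.829, SE 0.352) and -0.91 for Foxp2 (adjusted p 0.848, SE 0.393) became -0.33 for each without control 2 (adjusted p 0.0695 and 0.267). All 10 striatum genes had lower values in KO cortex, none called by edgeR, with a median log2 change of -1.72, and none of the 10 was at 0. The part of striatal RNA in the Pcp4 and Foxp2 values was not tested.

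Rora went the other way, with 72.8, 56.4 and 77.7 CPM in cortex controls and 85.9 and 84.1 CPM in KO mice. Its log2 change of 0.30 (adjusted p 0.861, SE 0.137) was not called, and without control 2, the lowest library, it was 0.18 (adjusted p 0.317). Gng13 was at 18.9, 28.2 and 18.6 CPM against 18.6 and 22.9 CPM, and Pcp2 at 4.84, 4.30 and 5.23 CPM against 4.53 and 4.22 CPM, so the groups overlapped for both. The 95% interval of the log2 change was -0.57 to 0.41 for Gng13 and -0.56 to 0.30 for Pcp2, which leaves room for a moderate fall of either.

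**Figure D5:**
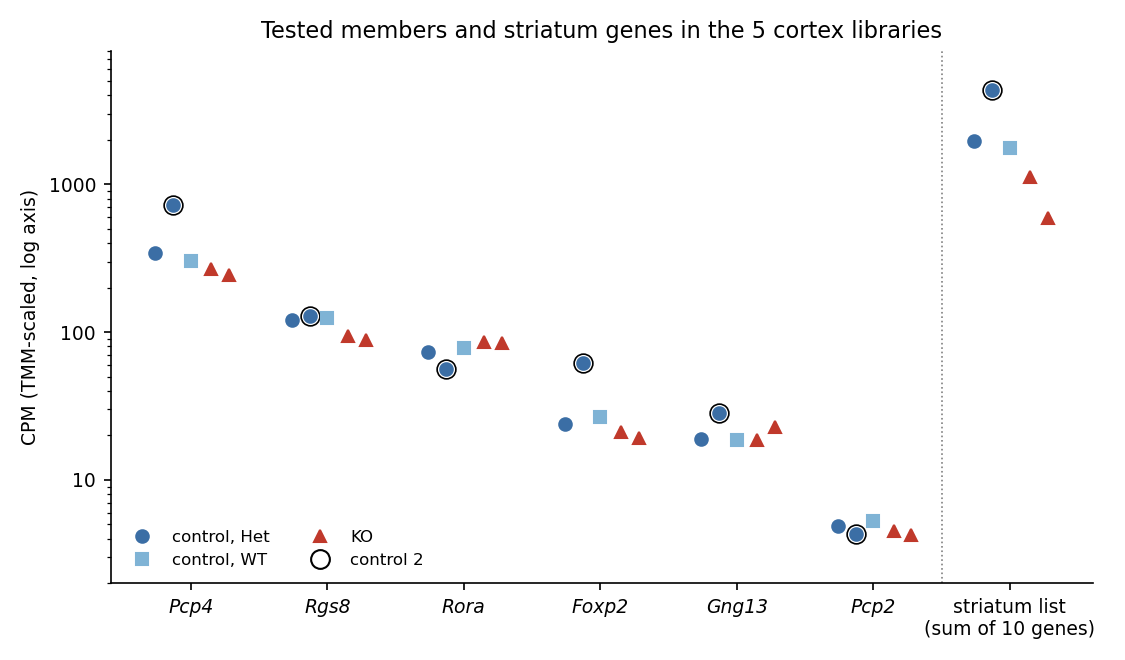
CPM (TMM-scaled, log axis) of the 6 tested genes and, right of the dotted line, the sum over 10 striatum genes in each of the 5 cortex libraries. Circles are Het controls (control 2 ringed), squares the WT control and triangles KO mice; control 2 is the highest library for Rgs8, Pcp4, Foxp2, Gng13 and the striatum sum and the lowest for Rora.

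The KO effect in cerebellum was then compared with that in cortex as an interaction over all 10 libraries. Here too the main fit did not pair the tissues of a mouse. Rgs8 was the one member that passed, with a difference of -0.76 (adjusted p 0.0432, SE 0.115), against 0.0776% of the 20614 genes tested in that direction. Pcp2 differed by -0.93 (adjusted p 0.0779, SE 0.158) and Rora by -0.71 (adjusted p 0.265, SE 0.195). With animal as a block, which the labels support because each mouse gave both tissues, 3 members passed (Rgs8 and Rora with an adjusted p of 0.0212 each, and Pcp2 with 0.0472), against 0.417% of genes. Gng13 differed by -0.69 (adjusted p 0.412, or 0.126 with the block). For Pcp4 (0.14) and Foxp2 (0.20) the difference had intervals of -0.76 to 1.04 and -0.90 to 1.29 and turned negative without cortex control 2, so these data do not show whether the tissues differ. The remaining 4 genes had too few cortex counts for the difference to be read.

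Genes with related roles were looked up in lists. Tested were 12 G alpha subunits, 15 G beta and gamma subunits, 17 genes of the RGS list and 4 other GoLoco proteins. The RGS list holds other family members and also Rgs7bp, which encodes a binding protein. None of the genes in these lists was called in cerebellum by edgeR or DESeq2. Since edgeR called 1.55% of all genes tested in either direction, no call in lists of this size is near the background. Unadjusted p-values under 0.05 numbered 5, 3, 4 and 1, against 13.4% of all genes, and median log2 changes were 0.05, 0.05, 0.18 and 0.19, beside 0.000899 for all genes. Among those with the smallest p, Gnai1, a Gi alpha subunit, had a log2 change of -0.24 (adjusted p 0.163). Gnb4 had a log2 change of -0.20 (adjusted p 0.286) and Gng3 of 0.23 (0.291). For Rgs6 it was 0.48 (0.0989) and for Gpsm1 0.14 (0.311).

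The same held for calmodulin and its IQ-motif binders, where 0 of 6 were called by either tool, 2 had an unadjusted p under 0.05 and Calm2, a calmodulin gene, had the smallest p (log2 change -0.39, adjusted p 0.153). In the list of phosphatase inhibitors and the cGMP pathway, 2 of 13 were called lower, against 1.04% of all genes, and 0 higher. Prkg1, the cGMP-dependent kinase that phosphorylates the Ppp1r17 product, fell from 48.2 to 21.4 CPM (log2 change -1.17, adjusted p 0.00697), and Pde5a, which breaks down cGMP, from 106 to 56.0 CPM (log2 change -0.92, SE 0.145, adjusted p 0.0159). Their adjusted p reached 0.0509 and 0.0901 when single libraries were left out. Ppp1r1a, a protein phosphatase inhibitor, had a log2 change of 0.63 (adjusted p 0.0707) and was called higher by DESeq2.

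Of 10 tested LIM homeobox genes and cofactors, none was called by edgeR, 3 had an unadjusted p under 0.05 and DESeq2 called 1 (Lmo2, lower). Their median log2 change was 0.42, above that of all genes, and 3 of the 10 were lower, as were Lhx1 and Lhx5. The list includes genes with few counts, such as Lmo3 at 1.54 CPM in controls and 3.16 CPM in KO mice. Of 10 paralogues of the member factors, none was called by either tool and 3 had an unadjusted p under 0.05. Foxp4, a forkhead relative of Foxp2, had a log2 change of -0.49 (adjusted p 0.0597, SE 0.105), and Foxp1 of 0.28 (adjusted p 0.303). Among 12 other transcription factors of cerebellar neurons, 2 were called lower, against 1.04% of all genes. Ebf2, which marks a subset of Purkinje cells, went from 9.47 to 3.22 CPM (log2 change -1.54, SE 0.262, adjusted p 0.0219), and Bcl11a from 15.7 to 8.94 CPM (log2 change -0.81, SE 0.139, adjusted p 0.0220). Leaving out single libraries raised these to at most 0.117 and 0.132.

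Of 17 other Purkinje cell markers, 14 were called lower, against 1.04% of all genes, and 17 had a negative log2 change. Their median was -0.89, between the medians of the 5 members called markers here and the 5 factors. Ptprr, Homer3 and Calb1 had the smallest p, with log2 changes of -0.98, -0.96 and -1.24 (adjusted p 0.000444, 0.000467 and 0.000505). Calb1 encodes calbindin, the calcium buffer by which Purkinje cells are usually stained. It stood at 1188 CPM in controls and 504 CPM in KO mice, a fall of the size seen for Rgs8. This list too was chosen with earlier results known, and the study names Calb1 and Car8 as lower at this age.

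Markers of other cerebellar cells were read beside the members. The sum over 10 granule cell genes was 4910 to 5781 CPM in controls and 4928 to 5673 CPM in KO mice, and that over 7 molecular layer interneuron genes 543 to 740.1 and 662 to 731 CPM, so the ranges overlapped and no gene of either list was called. The sum over 4 Golgi cell genes was higher in KO mice (243 and 251 CPM against 169 to 191 CPM), with none called. The sum over 7 genes of Bergmann glia and astrocytes was 2881 to 3059 CPM in KO mice against 2630.3 to 2829 CPM in controls. Of the 7, 3 were called higher, 1 was called lower and 3 had a negative log2 change. Over all genes tested, 1.55% were called in either direction and 1.04% were called lower. For 6 microglia genes the sum was 148 to 154 against 104 to 120 CPM, with 1 of 6 called higher. None of these genes was at 0 in all cerebellum libraries. Purkinje list genes summed to 6782 to 8625 CPM in controls and to 3549 and 3618 CPM in KO mice. The part of these shifts in the member values was not tested.

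The genes whose centred log2 CPM profile lay nearest to each member over the 10 libraries were found among 13459 genes by the root mean square difference. These profiles are set mostly by the difference between tissues. Leaving aside Chtf18 and Igsf5, which share reads with Gng13 and Pcp4, the nearest were Nrk for Pcp2 (0.190), Stac for Rgs8 (0.186), Ddx49 for Gng13 (0.156), Lingo3 for Pcp4 (0.212), Plcb4 for Rora (0.0861), Cbr3 for Foxp2 (0.229), Cbln1 for Lhx1 (0.266), Skor1 for Lhx5 (0.233) and Pkp3 for Skor2 (0.122). Ddx49 and Stac have 29.8% and 11.3% of their exonic bases in another gene, so their counts can hold shared reads too. Ppp1r17 had no close match, its nearest gene being Car8 (0.564). Among the members, Gng13 and Rora (0.354) and Pcp2 and Lhx1 (0.381) were nearest to each other. In Plcb4, a phospholipase C of the Purkinje cell, the KO effect in cerebellum was a log2 change of -0.37 (adjusted p 0.0744), next to the -0.43 of Rora. Plcb4 was picked by its likeness to Rora over these same libraries, so the closeness is no separate evidence. Other nearest genes varied, with log2 changes of -1.40 for Nrk and -0.97 for Stac but -0.09 for Cbln1 and 0.09 for Skor1.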

How the data were processed

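RNA was sequenced from the cerebellum and cortex of 3 control and 2 KO mice, 10 libraries in all. The authors deposited a table of unnormalized read pair counts for each library. Per the study's methods and the file headers, strand-specific libraries, made at either of a pair of companies without a label saying which, were read as 2 ends of 150 bases, trimmed, aligned to GRCm38 with STAR and counted over exons with featureCounts (Subread 2.0.1), without strand and with a pair counted for every gene it overlapped. Reads from overlapping genes on either strand therefore cannot be told apart. The 26345 table entries with no mouse gene identifier, 0.160% to 0.926% of a library's counts, were left out.

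KO and control libraries were compared within a tissue with edgeR 4.0.16 (quasi-likelihood F test, R 4.3.3), over all genes kept by filterByExpr (count minimum 10), with TMM scaling and Benjamini-Hochberg adjusted p-values. A gene was called at an adjusted p under 0.05 and an absolute log2 change over 0.5, and the interaction at an adjusted p under 0.05. Within a tissue, the p-values measure the spread between these mice. The main fits across tissues took both libraries of a mouse as independent, so their p-values do not measure that spread. Precision was set by the mice, with a biological coefficient of variation of 0.121 in cerebellum and 0.141 in cortex. The study used DESeq2, which was run as an alternative (version 1.42.0), beside RLE scaling, no low count filter, leaving out each library, the replicate number or animal as a block, and sex as a covariate. The animal block pairs tissues of the same mouse by label. The test was tried on simulated data first. Profile likeness used log2 of CPM plus 0.5 over genes with a mean of at least 5 CPM.

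The members, gene lists and the alternatives were chosen with earlier results of these data known. Named are the members, Snx14, genes sharing over 10% of a member's exonic bases, the 3 list genes with the smallest p in cerebellum, the top gene of cell type lists and up to 3 genes nearest in profile. Promoter windows are from RefSeq.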

Additional observations from a re-analysis of the deposited data

Results flagged for a closer look

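The KO effect on Rgs8 differed between the tissues by a test of the difference itself. The log2 change was -1.23 in cerebellum and -0.45 in cortex, with both KO libraries below all controls in each tissue, and the difference was -0.76 (edgeR, adjusted p 0.0432). It was called in 2 of 10 fits that left out 1 library, with an adjusted p from 0.00773 to 0.250.

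Rora was flagged because its KO libraries lay below all 3 controls in cerebellum and above all 3 in cortex. The log2 change in cortex was 0.30, or 0.18 without cortex control 2, and the difference of the log2 changes was -0.71. The main test of this difference, which did not pair the tissues of a mouse, did not pass (edgeR, adjusted p 0.265). With animal as a block, which the labels support, it passed (edgeR, adjusted p 0.0212).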

How the results depend on the processing

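In cerebellum 5 to 9 members were called when single libraries were left out, 7 with RLE scaling or with sex as a covariate, and 8 with DESeq2 or with no low count filter. A fit that leaves out a KO mouse assumes that the lone KO library varies like the controls. The replicate block by number called 5 members in cerebellum, losing Pcp4 and Skor2, and 0 in cortex. Same-numbered mice share a number and, by their sex-linked genes, sex (female for 1, male for 2), so the block partly carries sex. No label pairs them, and their deviations correlated with r of 0.0133 and -0.0346 in cerebellum and of 0.0717 and 0.151 in cortex. In cortex, no low count filter called 2 members (Pcp4 and Foxp2) against 0. In both tissues and for the interaction the fit with no filter had infinite prior degrees of freedom, so its p-values and counts of calls are not reliable. For the interaction, against 1 member, DESeq2 called 4, no filter 5 and the replicate block by animal 3, and leaving out single libraries gave 0 to 3. The log2 factor to marker difference of 0.42 ranged from 0.30 to 0.51 over single libraries left out. Directions turned only for uncalled values: over single libraries left out, Gng13 in cortex ranged from -0.24 to 0.15 (0.06 without KO 1), and the interaction from -1.36 to 3.85 for Lhx5 (-0.55 without cortex KO 1), -0.38 to 0.33 for Pcp4 and -0.39 to 0.41 for Foxp2. The cause of these changes was not tested.

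Over all genes, 302 calls in cerebellum became 842 with no filter, 181 with the replicate block, and 133, 179 and 174 without control 1, control 3 and KO 1. In cortex 0 became 380 with no filter, 45 with DESeq2, 98 without control 2, 7 without KO 2 and 3 with the replicate block or sex as a covariate. The 21 interaction calls became 599 with no filter, 221 with DESeq2, 128 with the replicate block by animal and 3 to 117 over single libraries left out. With few counts in cortex, no KO effect could be read there for Ppp1r17, Lhx1, Lhx5 and Skor2.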
